A study of Mus musculus with 6 samples.

Results

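The constitutive proteasome and its activators were examined in MR13 cells and in WTR- cells, both derived from 4T1, a mouse mammary carcinoma line of BALB/c origin. Members were all genes whose symbol in the array annotation was built as Psma to Psmg followed by a number, except the immunoproteasome subunits Psmb8, Psmb9 and Psmb10. This gave 45 genes of the 19933 genes with a probe set of their own, and all 45 were measured. They were divided into 16 genes of the core particle, 17 genes of the regulatory cap, 5 genes of the activators and their relatives, and 7 genes of assembly chaperones.

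MR13 (3 arrays) was selected from 4T1 with 13 μg/ml methotrexate, an inhibitor of dihydrofolate reductase, for up to 2 weeks according to the labels, until colonies of survivors appeared, and WTR- (3 arrays) was the untreated line. The text of the study gives another concentration and a longer exposure for MR13, followed by normal medium, and no label says whether the drug was present when RNA was taken. Total RNA came from triplicate wells of each line and was hybridised to Mouse Gene 1.0 ST arrays, whose deposited values are on the log2 scale. MR13 is a single selected line, so the p-values below describe the spread between wells and not between independent selections.

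The proteasome is the protease that degrades ubiquitin-tagged proteins in the cytosol and nucleus. Its barrel-shaped core particle is built of outer alpha rings, which form the gate, and inner beta rings, in which Psmb5, Psmb6 and Psmb7 carry the catalytic sites. The regulatory cap recognises ubiquitin, removes it, unfolds the substrate with a ring of ATPases and feeds it into the core, while ubiquitin-independent activators can replace the cap and dedicated chaperones assemble the core and the base of the cap. Tumor cells depend heavily on this system, and the transcription factor NRF1 (Nfe2l1) raises its genes together when proteasome activity is limiting.

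The 6 arrays had medians between 6.57 and 6.62 on the log2 scale. Correlation over all probe sets was 0.998 to 0.9987 within groups and 0.984 to 0.987 between them. The epithelial keratins Krt8 and Krt18 were bright in every array of both lines (12.74 to 13.61 in MR13 and 12.97 to 13.46 in WTR-), whereas 4 of the 5 epithelial markers were lower in MR13, Krt18 by a small amount (-0.19). Epcam differed by -4.30, Cdh1, the gene of E-cadherin, by -3.24 and a further keratin gene, Krt19, by -2.23. The mean log2 signal of the epithelial list was 9.81 to 9.94 in MR13 and 11.79 to 11.85 in WTR-. Of 19 markers of fibroblasts, myeloid cells, lymphocytes and endothelium, 3 were higher in MR13 and 0 lower (Pdgfra by 1.82, Dcn by 1.70 and Cd68 by 0.35 on the log2 scale), and the mean of the 5 fibroblast markers was 6.41 to 6.58 in MR13 and 5.66 to 5.79 in WTR-. The part of these differences in the values of proteasome genes was not tested. In bulk RNA a change per cell and a change in the mix of cells cannot be told apart.

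Compared with WTR-, MR13 cells showed small differences of proteasome genes in both directions, and no common shift. In the fit over all genes (limma, Benjamini-Hochberg adjusted p under 0.05), 18 of the 45 members differed, which is 40%, against 37.6% of all genes tested. Higher signal in MR13 was found for 6 genes (Psmf1, Psmd5, Psmd10, Psmc3, Psmb7 and Psmc2), where 17% of all genes were called in that direction. Another 12 genes had lower signal in MR13 (Psmg4, Psme3, Psmg1, Psma1, Psma5, Psmc6, Psmd8, Psme1, Psmb5, Psmg3, Psmd6 and Psmc1), where 20.6% of all genes were. The share of members called was thus close to that of all genes, a background that includes many dim genes. Of the 45 members, 43 were among the brighter 70% of genes. Without the dimmest 30% of genes, 7640 genes were called in place of 7497, although fewer were tested. The share of all genes called was thus higher in that fit, in which 7 of the 43 members were higher and 12 lower. The members' share was below that of all genes in that fit, so the closeness holds only for the full background. Members were not compared with genes of like brightness.

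The sizes of the differences were likewise modest. The members' log2 differences, MR13 minus WTR-, lay between -0.45 and 0.60 with a median of -0.04, beside a median of 0.01 over all genes. Their median size without regard to sign was 0.09, against 0.13 over all genes. None of the members changed 2-fold, as 4.06% of all genes did at the same adjusted p, and 11 members changed at least 1.2-fold (4 higher and 7 lower), as 29.1% of all genes did. The arrays of the MR13 group and the WTR- group did not overlap for 26 of the 45 members and for 47.4% of all genes. For the 27 members not past the threshold, the 95% confidence intervals reached from -0.27 to 0.37, the upper bound being that of Psma8, one of 2 dim members. Without these 2 dim members the intervals allowed a signal at most 1.21-fold lower or 1.19-fold higher in MR13.

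**Figure D1:**
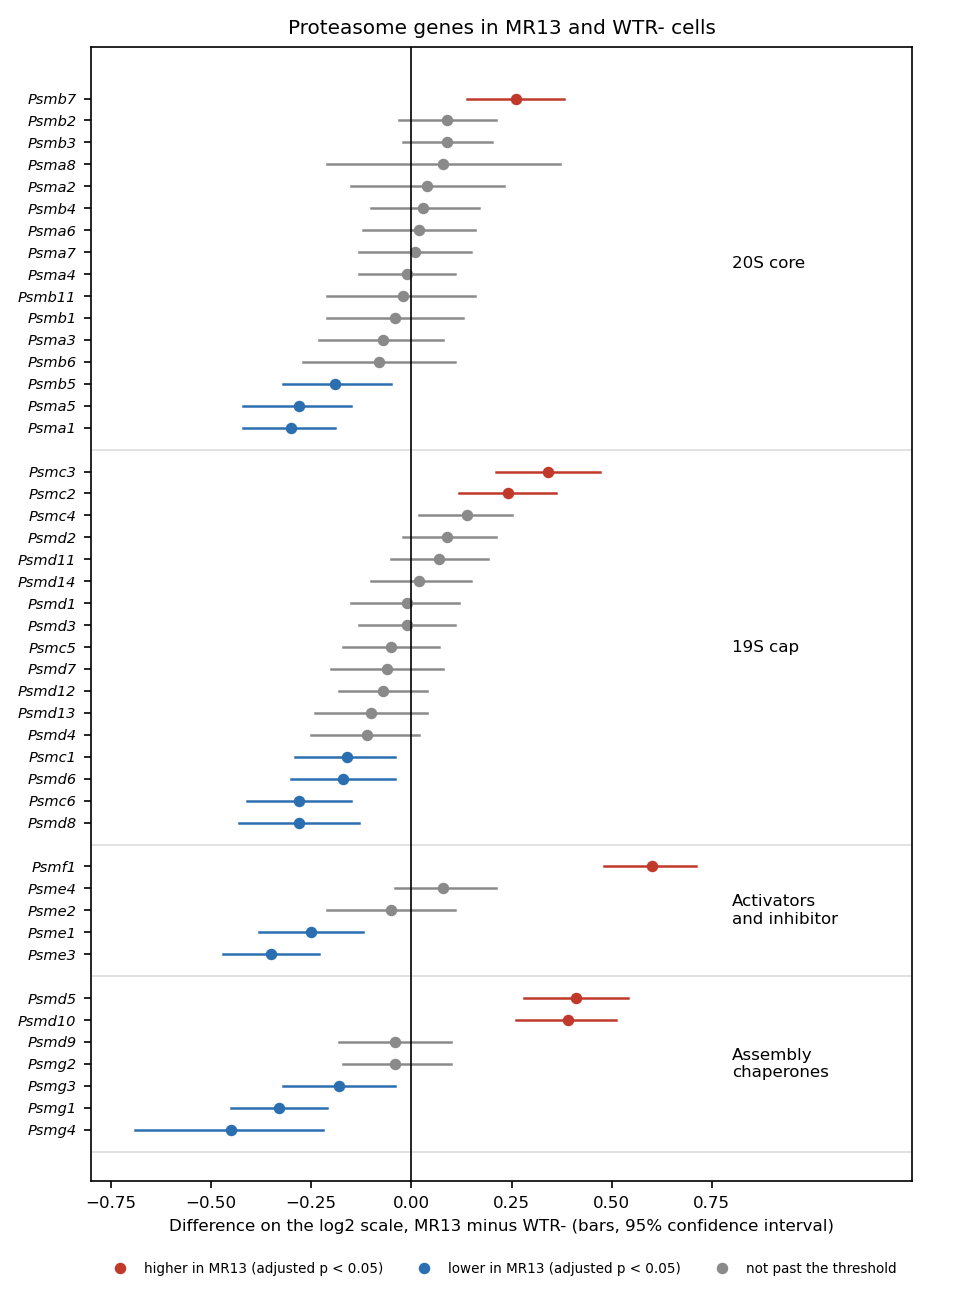
Difference in log2 signal, MR13 minus WTR-, of the 45 proteasome genes by class, with points for the limma estimate (3 arrays per line), bars for the 95% confidence interval and colour for the call at an adjusted p under 0.05. Psmf1 stood farthest to the right at 0.60 and Psmg4 farthest to the left at -0.45, while 27 genes in grey did not pass the threshold.

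In the core particle, 1 of 16 genes was higher and 3 were lower in MR13 (25% called, against 37.6% of all genes), and the class median was 0.00. The 3 catalytic subunits did not move together. Psmb5, which carries the chymotrypsin-like site and is the main target of clinical proteasome inhibitors, had log2 signals of 12.71, 12.85 and 12.78 in MR13 and 12.99, 12.89 and 13.01 in WTR-. All MR13 arrays lay below all WTR- arrays, but the gap between the nearest arrays was narrow. The difference was -0.19 ± 0.06 (SE, n = 3 each; limma adjusted p = 0.037). This call was lost in 8 of 15 alternative analyses, among them those without MR13 replicate 1 (-0.15), MR13 replicate 3 (-0.19), WTR- replicate 1 (-0.17) or WTR- replicate 3 (-0.16).

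Psmb7, which carries the trypsin-like site, went the other way, with 11.43, 11.46 and 11.54 in MR13 against 11.21, 11.21 and 11.24 in WTR-. Every MR13 array was above every WTR- array, and the difference was 0.26 ± 0.05 (limma adjusted p = 0.004). Psmb6, which carries the caspase-like site, had 11.05, 11.21 and 11.36 in MR13 and 11.20, 11.31 and 11.36 in WTR-. Its groups overlapped, and its difference of -0.08 (95% confidence interval -0.27 to 0.11) did not pass the threshold (limma adjusted p = 0.51). For 2 of the catalytic genes the upstream 250 bases in RefSeq (build GRCm38.p6) held the letters TGACNNNGC, the core of the antioxidant response element through which NRF1 and NRF2 act with small MAF proteins. They are shown with the match in capitals, 5′ to 3′ on the gene's strand, at chr14:54618008-54618068 on the minus strand for Psmb5 and at chr11:70525322-70525356 on the plus strand for Psmb6.
Psmb5: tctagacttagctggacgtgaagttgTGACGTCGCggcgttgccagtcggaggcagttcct
Psmb6: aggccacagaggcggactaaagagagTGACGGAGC
The match began 47 bases before the annotated start of Psmb5 and 9 bases before that of Psmb6. No promoter of Psmb7 was matched.

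Of the alpha ring subunits, which carry no catalytic site, Psma1 and Psma5 were lower in MR13. Psma1 had 11.85, 11.81 and 11.89 in MR13 against 12.13, 12.16 and 12.16 in WTR-, a difference of -0.30 ± 0.05 (limma adjusted p = 0.0012). Psma5 had 10.68, 10.82 and 10.86 in MR13 against 11.09, 11.05 and 11.07 in WTR-, a difference of -0.28 ± 0.06 (adjusted p = 0.0048). For both genes the lines were fully separated, and a further probe set of Psma5 gave -0.31. The remaining alpha genes differed by -0.07 (Psma3), -0.01 (Psma4), 0.01 (Psma7), 0.02 (Psma6), 0.04 (Psma2) and 0.08 (Psma8). None of these 6 passed the threshold, and all overlapped between the lines. Psma8, an alpha subunit of the testis, and Psmb11, the beta subunit of thymic cortical epithelium (-0.02), were among the dimmest 30% of genes. The structural beta genes Psmb1 (-0.04), Psmb4 (0.03), Psmb2 (0.09) and Psmb3 (0.09) did not pass either, although the arrays of Psmb2 and of the Psmb3 probe set used did not overlap. A further probe set of Psmb3 overlapped between the lines, with 13.13, 13.30 and 13.26 in MR13 and 13.16, 13.18 and 13.10 in WTR- (difference 0.08). Psmb2 and Psmb3 were called with a robust prior that followed signal intensity, and Psmb3 also in the methods' t-test after adjustment.

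**Figure D2:**
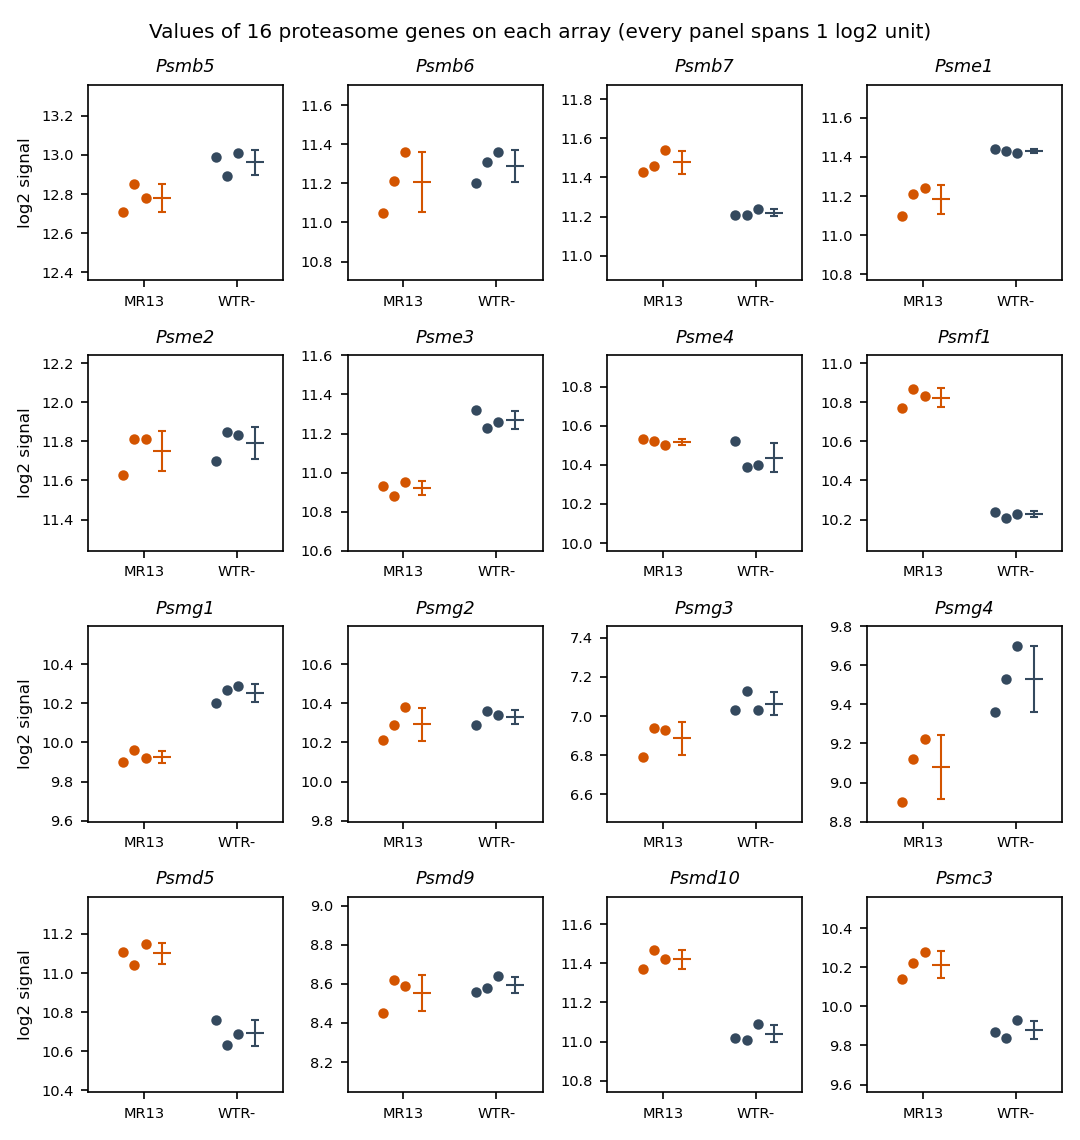
Log2 signal of 16 proteasome genes on each array, MR13 left of WTR- in every panel, with points for the 3 arrays of a line and the bar for mean ± SD; each panel has its own range of 1 log2 unit. Psmf1, Psmd5, Psmd10 and Psmc3 were higher on all MR13 arrays, Psme3 and Psmg1 lower on all of them, and Psmb6, Psme2 and Psmg2 overlapped.

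In the regulatory cap, 2 of 17 genes were higher and 4 were lower in MR13 (35.3% called, against 37.6% of all genes), with a class median of -0.05. Both of the higher genes and 2 of the lower ones encode ATPases of the base ring, which unfold the substrate. Psmc3 had 10.14, 10.22 and 10.28 in MR13 against 9.87, 9.84 and 9.93 in WTR-, a difference of 0.34 ± 0.06 (limma adjusted p = 0.0014). Psmc2 had 10.35, 10.39 and 10.45 in MR13 against 10.14, 10.20 and 10.14 in WTR-, a difference of 0.24 ± 0.05 (adjusted p = 0.0065). In contrast, Psmc6 had 11.31, 11.22 and 11.32 in MR13 against 11.50, 11.55 and 11.63 in WTR-, a difference of -0.28 ± 0.06 (adjusted p = 0.0044). Thus called genes of a ring that holds 1 copy of each product differed in opposite directions. The lines did not overlap for any of the 6 ATPase genes, as for 47.4% of all genes. For Psmc5 the separation was minimal, with 9.46 on the highest MR13 array and 9.47 on the lowest WTR- array. Psmc1 was lower by a narrow margin, with 10.62, 10.72 and 10.62 in MR13 against 10.86, 10.79 and 10.79 in WTR- (difference -0.16, adjusted p = 0.047), and a further probe set gave -0.10. The ATPase genes Psmc4 (0.14, adjusted p = 0.067) and Psmc5 (-0.05) did not pass, and Psmc4 was called in 5 of the 15 alternatives.

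The lid, which holds the deubiquitinase Psmd14, showed 2 lower genes among 8 (25% called, against 37.6% of all genes). Psmd8 had 11.10, 11.19 and 11.32 in MR13 against 11.45, 11.48 and 11.52 in WTR-, a difference of -0.28 ± 0.07 (limma adjusted p = 0.0082). Psmd6 had 11.01, 11.02 and 11.07 in MR13 against 11.17, 11.16 and 11.29 in WTR-, a difference of -0.17 ± 0.06 (adjusted p = 0.042). Neither gene overlapped between the lines, but the 2 calls differed in firmness. Psmd8 was called in all 15 alternatives, whereas Psmd6 was lost whichever single array was left out (-0.19 to -0.13). Psmc1 was lost without MR13 replicate 1 (-0.15), MR13 replicate 3 (-0.14), WTR- replicate 1 (-0.14), WTR- replicate 2 (-0.17) or WTR- replicate 3 (-0.17). The other lid genes differed by -0.10 (Psmd13), -0.07 (Psmd12), -0.06 (Psmd7), -0.01 (Psmd3), 0.02 (Psmd14) and 0.07 (Psmd11). The large base subunits Psmd1 (-0.01) and Psmd2 (0.09) and the ubiquitin receptor Psmd4 (-0.11) did not pass the threshold. A further probe set of Psmd2 gave 0.04 and overlapped between the lines, unlike the one used.

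The promoter of Psmc6 was the other one, besides that of Psmb5, in which a member that was lower in MR13 held the antioxidant response element core. It is shown for comparison with those above, from chr14:45329574-45329631 on the plus strand of GRCm38.p6, with the match (on the opposite strand to the gene) in capitals.
Psmc6: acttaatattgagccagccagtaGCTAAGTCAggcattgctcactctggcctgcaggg
This match began 227 bases before the annotated start, farther upstream than those of Psmb5 and Psmb6.

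The largest difference of any member was in Psmf1, which encodes PI31, a protein that inhibits the core particle in vitro and binds its ends. Psmf1 had 10.77, 10.87 and 10.83 in MR13 and 10.24, 10.21 and 10.23 in WTR-. The lowest MR13 array was well above the highest WTR- array. The difference was 0.60 ± 0.05 (SE, n = 3 each; limma adjusted p = 2.21e-05), or 1.51-fold, and it was called in all 15 alternatives. Because no other member moved as far, the RefSeq sequence of the 250 bases before its annotated start is given, from chr2:151741311-151741560 on the minus strand of GRCm38.p6, all in lower case because none of the 5 motifs searched (listed with their letters further on) was found.
Psmf1: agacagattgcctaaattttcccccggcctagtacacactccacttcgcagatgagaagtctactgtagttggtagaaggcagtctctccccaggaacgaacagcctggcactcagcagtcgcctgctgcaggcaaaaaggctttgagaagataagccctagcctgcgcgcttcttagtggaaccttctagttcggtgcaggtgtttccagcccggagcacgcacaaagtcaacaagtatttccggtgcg
The content of G and C in this stretch was 53.2%.

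Of the activators, Psme3 and Psme1 were lower in MR13. Psme3, the nuclear activator PA28γ, had 10.93, 10.88 and 10.95 in MR13 against 11.32, 11.23 and 11.26 in WTR-, a difference of -0.35 ± 0.05 (limma adjusted p = 6.79e-04). Psme1, the alpha subunit of the interferon-inducible activator PA28, had 11.10, 11.21 and 11.24 in MR13 against 11.44, 11.43 and 11.42 in WTR-, a difference of -0.25 ± 0.06 (adjusted p = 0.0061). In both genes every MR13 array was below every WTR- array. Psme2, the beta subunit that forms a ring with Psme1, overlapped between the lines, with 11.63, 11.81 and 11.81 in MR13 and 11.70, 11.85 and 11.83 in WTR- (difference -0.05, 95% confidence interval -0.21 to 0.11, adjusted p = 0.67). Psme4, the activator PA200, had 10.53, 10.52 and 10.50 in MR13 and 10.52, 10.39 and 10.40 in WTR- (difference 0.08, adjusted p = 0.30). The interval of Psme2 and that of Psme1 (-0.38 to -0.12) overlapped, and the difference between these partner genes was not tested. Just after the start of Psme1, on the strand opposite to the gene, RefSeq held a match to GAAANNGAA, the letters of an interferon response element, shown in capitals from chr14:55578483-55578512 on the plus strand of GRCm38.p6.
Psme1: gtgcaggtttcgagctgtgctTTCGCTTTC

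Among the assembly chaperones, 2 of 7 genes were higher and 3 were lower in MR13, where 17% and 20.6% of all genes were called in those directions, and the class median was -0.04. The 4 genes of the PAC proteins, which build the alpha ring of the core, had negative differences and a median of -0.25, and 3 of them passed the threshold. The 3 genes of chaperones of the cap base had a median of 0.39, and 2 of them passed in the opposite direction, with no test of the difference between these groups. Psmg1 (PAC1) had 9.90, 9.96 and 9.92 in MR13 against 10.20, 10.27 and 10.29 in WTR-, a difference of -0.33 ± 0.05 (limma adjusted p = 9.36e-04). Psmg2, which pairs with Psmg1, had 10.21, 10.29 and 10.38 in MR13 and 10.29, 10.36 and 10.34 in WTR- (difference -0.04, 95% confidence interval -0.17 to 0.10). Thus the genes of this heterodimer gave intervals that did not overlap, although the difference between them was not tested. Psmg4 (PAC4) had 8.90, 9.12 and 9.22 in MR13 against 9.36, 9.53 and 9.70 in WTR-, a difference of -0.45 ± 0.10 (adjusted p = 0.0076). Its partner Psmg3 (PAC3) had 6.79, 6.94 and 6.93 in MR13 against 7.03, 7.13 and 7.03 in WTR- (difference -0.18, adjusted p = 0.049). Both were separated between the lines, with Psmg4 the most variable of the called members within each line (SD 0.17 in MR13 and 0.17 in WTR-). The call of Psmg3 was lost whichever single array was left out (-0.20 to -0.13), and that of Psmg4 was lost in the methods' t-test after adjustment.

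Upstream of Psmg1 the letters TTCNNNGAA of a STAT site were found, which is shown because the study addresses JAK signaling in MR13. The stretch is chr16:95991169-95991210 on the minus strand of GRCm38.p6, with the match in capitals, and the match began 243 bases before the annotated start.
Psmg1: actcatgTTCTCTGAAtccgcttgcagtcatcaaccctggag
One other member, Psmd2, held these letters.

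The base chaperones escort single ATPases into the ring. Psmd5, which binds the product of Psmc2, had 11.11, 11.04 and 11.15 in MR13 against 10.76, 10.63 and 10.69 in WTR-, a difference of 0.41 ± 0.06 (limma adjusted p = 4.63e-04). Psmd10 (gankyrin), which binds the product of Psmc4 and is known as an oncoprotein in liver, had 11.37, 11.47 and 11.42 in MR13 against 11.02, 11.01 and 11.09 in WTR-, a difference of 0.39 ± 0.05 (adjusted p = 4.11e-04). In both genes all MR13 arrays were above all WTR- arrays, and both were called in all 15 alternatives. Psmd9, the remaining base chaperone, overlapped between the lines, with 8.45, 8.62 and 8.59 in MR13 and 8.56, 8.58 and 8.64 in WTR- (difference -0.04, adjusted p = 0.68).

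**Figure D3:**
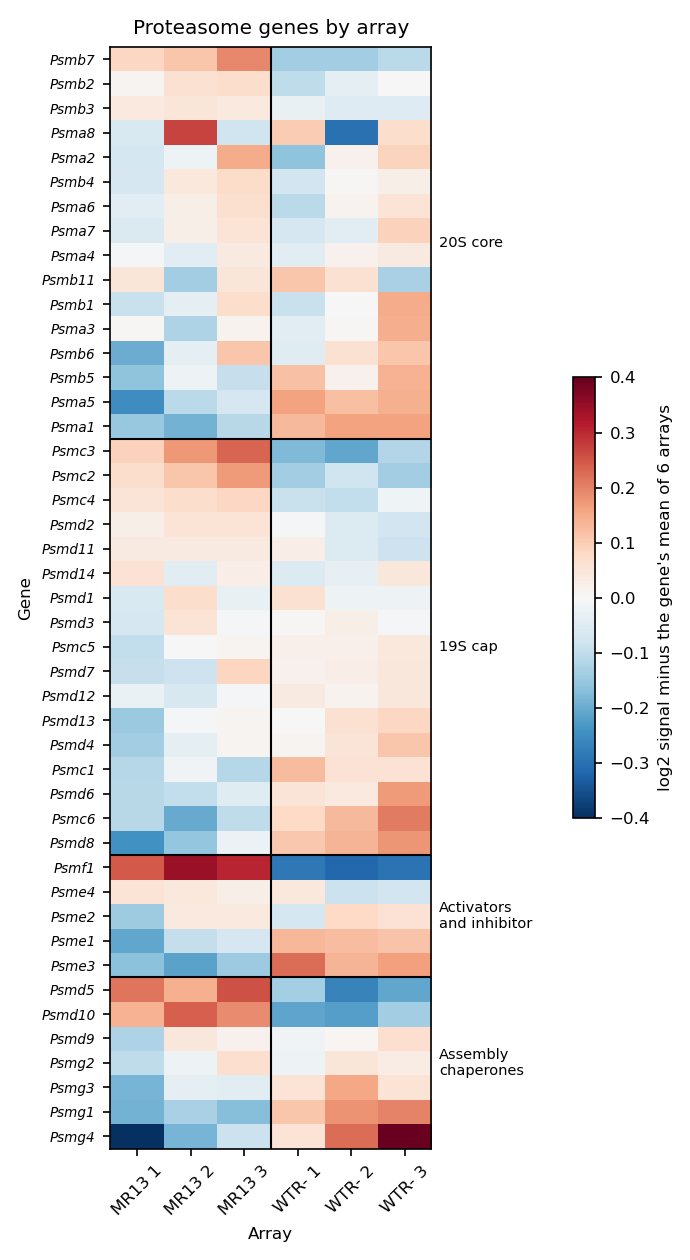
Log2 signal of each proteasome gene minus its mean over the 6 arrays, with the 3 MR13 arrays left of the 3 WTR- arrays and genes ordered by difference within each class. MR13 replicate 1 was the lowest MR13 array for 32 of the 45 genes, and Psmf1, Psmd5, Psmd10 and Psmc3 were above their mean on every MR13 array.

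Within each line the members tended to be high or low together on an array. The same counts were not taken over all genes, so this is not shown to be particular to the members. In MR13, replicate 1 was the lowest array for 32 of 45 members and replicate 3 the highest for 30. In WTR-, replicate 1 was the lowest for 23 and replicate 3 the highest for 26. The shifts were small, since the members' mean deviation from their mean over all 6 arrays was -0.06, -0.003 and 0.03 on the MR13 arrays 1 to 3 and -0.007, 0.00 and 0.041 on the WTR- arrays 1 to 3. When MR13 replicate 1 was left out, the median difference of the members was 0.00 in place of -0.04.

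The immunoproteasome subunits, which replace the constitutive catalytic subunits after interferon, were set beside their counterparts. All 3 were higher in MR13, by 0.94 ± 0.09 for Psmb8 (limma adjusted p = 3.20e-05), 0.47 ± 0.10 for Psmb9 (adjusted p = 0.0046) and 0.34 ± 0.06 for Psmb10 (adjusted p = 0.0026). Psmb8 had 9.87, 10.06 and 10.16 in MR13 against 8.97, 9.13 and 9.17 in WTR-. Psmb9 had 8.08, 8.42 and 8.41 in MR13 against 7.90, 7.89 and 7.72 in WTR-, and Psmb10 had 10.16, 10.34 and 10.29 in MR13 against 9.87, 9.99 and 9.92 in WTR-. No MR13 array overlapped a WTR- array for any of them, although Psmb9 was lost in the methods' t-test after adjustment.

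To compare each pair within an array, the log2 signal of the constitutive subunit was subtracted from that of its replacement, relative to the WTR- mean. Psmb8 minus Psmb5 was 1.03, 1.08 and 1.26 in MR13 against -0.15, 0.12 and 0.03 in WTR-, a change of 1.12 (2.18-fold). Psmb9 minus Psmb6 was 0.48, 0.66 and 0.51 in MR13 against 0.15, 0.04 and -0.19 in WTR-, a change of 0.55. Both pairs were fully separated, with an exact two-sided permutation p = 0.1 each, the smallest that 3 against 3 arrays allow, and 0.15 after adjustment over the 3 pairs. Psmb10 minus Psmb7 overlapped between the lines (0.02, 0.18 and 0.05 in MR13 against -0.04, 0.07 and -0.03 in WTR-, a change of 0.08, exact permutation p = 0.3), and both genes of this pair were higher in MR13.

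**Figure D4:**
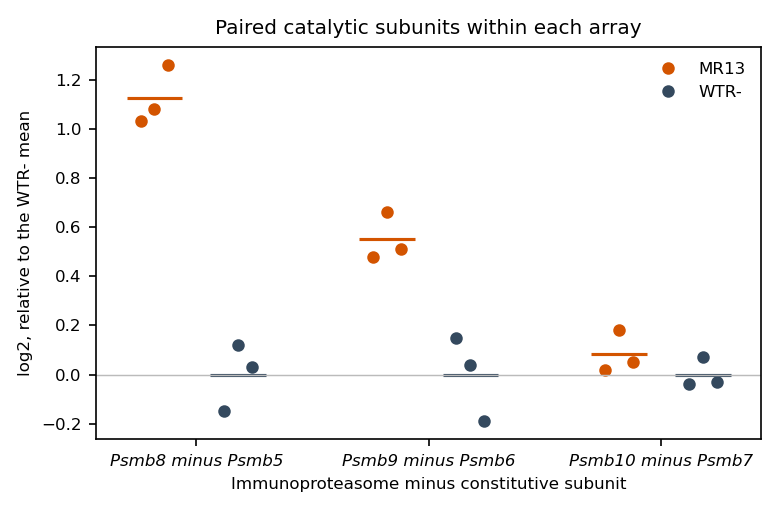
Log2 signal of each immunoproteasome subunit minus that of its constitutive counterpart on each array, relative to the WTR- mean, with MR13 left of WTR-, points for arrays and lines for the means of 3 arrays. The MR13 means were 1.12 for Psmb8 minus Psmb5, 0.55 for Psmb9 minus Psmb6 and 0.08 for Psmb10 minus Psmb7.

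Genes that work with the proteasome were read in the same fit. Of 9 partners of the proteasome, 0 were higher and 2 were lower in MR13 (22.2% called, against 37.6% of all genes). The lower genes were Pomp, the maturation factor of the core (difference -0.26, limma adjusted p = 0.0082), and Uchl5, a deubiquitinase of the cap (-0.16, adjusted p = 0.031). The partner list had a median of -0.04, the same as the members. Of 8 genes that supply or deliver ubiquitin, 3 were higher and 2 lower (62.5% called), with a median of 0.06. Uba6, an E1 enzyme for ubiquitin, differed by -0.49 (adjusted p = 6.32e-05), and the shuttle gene Ubqln2 by 0.34 (adjusted p = 0.0042). Vcp, the segregase that extracts substrates, and its cofactor gene Nploc4 differed by 0.25 and 0.22, whereas Ufd1 (0.08) did not pass. Ubqln4 went the other way from Ubqln2 (-0.19, adjusted p = 0.015).

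Of the transcription factors that control proteasome genes, the principal one did not pass the threshold. Nfe2l1 had 10.43, 10.61 and 10.48 in MR13 and 10.69, 10.61 and 10.61 in WTR-, a difference of -0.13 (limma adjusted p = 0.14), and it was called only when MR13 replicate 2 was left out (-0.18). Nfe2l2, which encodes NRF2, the regulator of antioxidant genes, was higher, with 12.28, 12.24 and 12.25 in MR13 against 11.52, 11.56 and 11.50 in WTR- (difference 0.73 ± 0.05, adjusted p = 4.96e-06). Of the small MAF partners, Mafk was lower by this test (-0.63, adjusted p = 2.40e-05), Maff was higher (0.29, adjusted p = 0.0022) and Mafg, at 0.07, did not pass. The list also held Keap1, which was higher (0.35, adjusted p = 0.0043), and Ngly1 (-0.10), which did not pass. Over this list of 7 genes, 3 were higher and 1 lower, with a median of 0.07 (57.1% called, against 37.6% of all genes).

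Other multisubunit complexes were read as a scale for the members. The COP9 signalosome, a relative of the proteasome lid, had 2 higher and 5 lower genes of 10 and a median of -0.15, with Cops7a at -0.34 (limma adjusted p = 0.0017) and Cops2 at 0.34 (adjusted p = 0.0026). The TRiC chaperonin, which folds actin and tubulin, had 0 higher and 6 lower genes of 8 and a median of -0.25, with Cct4 at -0.45 (adjusted p = 2.64e-04) and Cct8 at -0.42 (adjusted p = 1.60e-04). In COP9 and TRiC 70% and 75% of genes were called, against 37.6% of all genes, 25% of the core and 35.3% of the cap. The core (median 0.00) and the cap (median -0.05) were thus nearer to 0 than either complex, with no test of that difference. The smaller classes had shares nearer to those of COP9 and TRiC, with 60% of the activators and 71.4% of the assembly chaperones called. Within the cap, 66.7% of the ATPase genes were called.

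Called members were found together on some chromosomes. Chromosome 2 holds 6 members, of which Psmf1, Psmd5, Psmc3 and Psmb7 were higher in MR13 and Psma7 and Psmd14 did not pass, and on this chromosome 27.9% of all 1737 genes were called higher and 9.56% lower. Chromosome 14 holds 6 members, of which Psmc6, Psme1, Psmb5 and Psmd6 were lower and Psme2 and Psmb11 did not pass, and there 10.6% of 701 genes were called higher and 28.2% lower. The median difference of the brighter 70% of genes was 0.12 on chromosome 2 and -0.09 on chromosome 14, whereas the members there had medians of 0.30 and -0.18. Thus 4 of the 6 higher members lay on chromosome 2 and 4 of the 12 lower members on chromosome 14, and a further lower member, Psmg1, lay on chromosome 16, where 10.3% of genes were called higher and 25.9% lower. Chromosomes were looked at after the values had been seen.

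When each array was centred on the median of its chromosome's genes, Psmf1 differed by 0.46, Psmd5 by 0.27 and Psmc3 by 0.20, and all kept their call. Psmb7 fell to 0.12 and was no longer called. On chromosome 14, Psmc6 (-0.18) and Psme1 (-0.15) kept their call, and Psmb5 (-0.09) and Psmd6 (-0.07) lost theirs. Psmg1, on chromosome 16 where the median was -0.08, differed by -0.23 after centring. DNA copy number was not measured here, and its part in these shifts was not tested. The other higher members lay elsewhere, Psmc2 on chromosome 5 and Psmd10 on the X chromosome, whose medians were 0.00 and 0.02. Of the other lower members, Psma1 and Psmd8 lay on chromosome 7 and Psme3 on chromosome 11. Psma5 lay on chromosome 3, Psmg4 on chromosome 13, Psmg3 on chromosome 5 and Psmc1 on chromosome 12. The medians of the chromosomes of these lower members were -0.01 to 0.01.

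**Figure D5:**
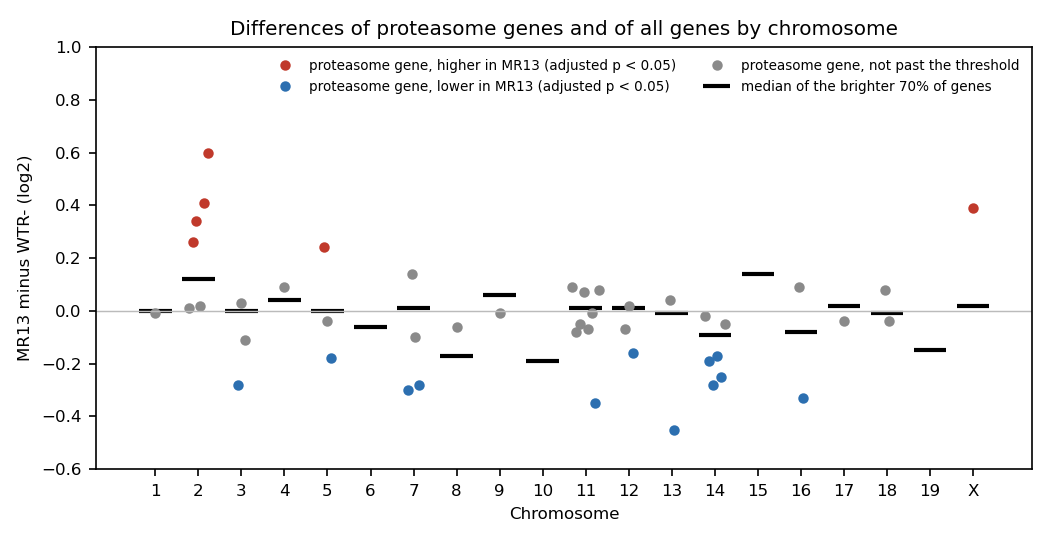
Difference in log2 signal, MR13 minus WTR-, of proteasome genes (points, coloured by call at an adjusted p under 0.05) by chromosome, with the median of the brighter 70% of all genes on the chromosome as a black bar. The bar stood at 0.12 on chromosome 2, where 4 of 6 proteasome genes were higher, and at -0.09 on chromosome 14, where 4 of 6 were lower.

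Promoter sequences (250 bases before to 50 after the start, RefSeq, GRCm38.p6) were matched for 37 of the 45 members, and 5 motifs were searched on both strands. The antioxidant response element core TGACNNNGC was found in 6 of 37 members (16.2%) and in 14% of all 27025 genes with a promoter. Besides Psmb5, Psmb6 and Psmc6 it was found in Psmd12, Psmd9 and Psme4. In Psmd9 it shared bases with a GC box. The GC box GGGCGG was found in 22 members (59.5%) and in 38.2% of all genes. The CCAAT box was found in 13 members (35.1%) and in 41.1% of all genes. The interferon response element GAAANNGAA was found in 7 members (18.9%, Psmb3, Psmb4, Psmc2, Psmd4, Psmd9, Psme1 and Psmg4) and in 9.76% of all genes, and the STAT site TTCNNNGAA in 2 members (5.41%) and in 9.55% of all genes. Members with a match included called and uncalled genes for each motif. For the antioxidant core 0 of the 6 were higher and 2 lower in MR13, and for the interferon element 1 of the 7 was higher and 2 were lower.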

How the data were processed

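The authors deposited 1 table of normalized log2 signals for 28350 probe sets on 6 Mouse Gene 1.0 ST arrays. The submitters' processing notes name affy and limma without versions, and the normalization is not given in the sources used here. Probe sets with 1 gene symbol (21780) were reduced to 19933 genes, each represented by its brightest probe set (mean of the 6 arrays). Another 1618 probe sets had several symbols and 4952 had none. Probe sets of near-identical copies may read one another, and 5 members had more than 1 probe set.

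MR13 was compared with WTR- by lmFit and eBayes (limma 3.58.1, R 4.3.3), with no covariate and with Benjamini-Hochberg adjustment over all genes, and an adjusted p under 0.05 was called. The number of arrays limits the precision. The fit was tested on simulated data in which 200 of the 19933 genes were changed, with the real spread. It recovered 0% of 1.1-fold, 34% of 1.25-fold, 74% of 1.5-fold and 96% of 2-fold changes, and 6.42% of its calls were false. Far fewer genes were changed there than were called in the real data, so these shares do not carry over directly. Every member is named, and arrays are given for the catalytic, activator and PAC genes and for the 3 largest called rises and falls of each class whose lines did not overlap. For other lists these were the immunoproteasome genes, Nfe2l1 and the 2 largest such differences. Levels of different probe sets were not set against each other. Alternatives changed normalization, the filter on dim genes, the use of probe sets, the prior, the test, a fold minimum of 1.2, the replicate block and the arrays included. Chromosome centring was added after seeing the data. Members and lists were chosen with earlier results of these data known.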

Additional observations from a re-analysis of the deposited data

How the results depend on the processing

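Of the 18 calls, 12 (5 higher and 7 lower) held in all 15 alternatives, leaving aside the 1.2-fold minimum, and no called difference changed direction. An intensity trend with a robust prior gave 10 members higher in MR13, with 3 in the core and 4 in the cap. The methods' t-test gave 7 members lower, with 2 in the cap and 1 among the assembly genes, and 2 core genes higher. The 1.2-fold minimum gave 7 members lower (2 in the cap and 1 activator) and 0 core and 1 cap genes higher. Centring each array on its median moved the median of all genes by 0.04, put the median of the members at 0.00, of the cap at -0.01 and of the activators at -0.01, and left 2 cap genes lower. Chromosome centring, chosen after seeing the data, gave 0 core genes higher, an activator median of 0.05 and 0.41 for Psmb10 minus Psmb7. Leaving out 1 array at a time gave 8 to 10 members lower and 6 higher, 2 to 3 cap genes lower, and medians of -0.06 to 0.00 for the members, -0.07 to -0.02 for the cap and -0.09 to 0.01 for the activators. The calls of Psmd6 and Psmg3 were lost whichever array was left out, that of Psmb5 held in 2 and that of Psmc1 in 1 of these 6 fits, and without MR13 replicate 1 the activator median was 0.01. Same-numbered arrays of the 2 lines had deviations that correlated at 0.13, 0 and 0.18. The other combinations ran from -0.2 (MR13 replicate 3 with WTR- replicate 1) to 0.05, with -0.12 for MR13 replicate 1 with WTR- replicate 3. The numbers were not taken to pair the arrays in the main fit, and an effect shared by same-numbered arrays was not tested. With the replicate block 6 members were higher and 10 lower, and 7442 genes were called in place of 7497. With 3 arrays per line, the SE of a member's difference was 0.05 to 0.13.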
